A study of Homo sapiens with 6 samples.

Results

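Vimentin (VIM), nestin (NES), plectin (PLEC), the nuclear lamins LMNA, LMNB1 and LMNB2 and the lamin B receptor LBR were followed in human U937T:PLZF-RARa cells with and without expression of the fusion protein PLZF-RARA. These 7 genes were chosen by symbol, of 19775 genes on the array with a probe set naming only that gene, and every probe set naming only a member was used, which gave 15. The set was proposed with the difference between these groups already known. Induced and uninduced values of the members are therefore given as a description with their spread and 95% interval, without p-values.

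U937T:PLZF-RARa derives from the human monocytic line U937 and makes PLZF-RARA, a fusion of the repressor ZBTB16 with the retinoic acid receptor RARA found in a rare acute promyelocytic leukaemia, once tetracycline is withdrawn. The induced group held 3 samples washed and grown for 48 h without tetracycline, and the uninduced group held 3 samples kept with tetracycline at 0.1 ug/ml. Both groups grew in medium with 10% serum, puromycin at 0.5 ug/ml and G418 at 1 mg/ml. The titles give 48 h for both groups, while another label describes the uninduced cells as taken before induction. All samples come from 1 engineered line, the labels do not say whether it is 1 clone, and no line without the fusion was used here, so expression of the fusion and loss of tetracycline cannot be told apart. Whether replicates came from separate cultures is not in the labels, and p-values therefore cover only the variation among these arrays, which may be technical.

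Intermediate filaments are rope-like polymers that give cells mechanical strength. Vimentin forms them in the cytoplasm of mesenchymal cells and leukocytes, nestin copolymerises with vimentin, mainly in progenitor cells, and plectin ties the filaments to actin, microtubules and the nucleus. Lamins form a related mesh under the inner nuclear membrane. LMNA encodes lamins A and C, which stiffen the nucleus and are low in many blood cells, LMNB1 and LMNB2 encode the B-type lamins, and LBR is an inner membrane protein with sterol reductase activity that binds B-type lamins and heterochromatin and shapes the lobed nucleus of neutrophils.

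Each sample was measured on its own Affymetrix array, and values are given as log2 intensity. A log2 value of 4 was the filter: a probe set was tested where at least 3 of the 6 arrays lay above it. Over the 20552 tested probe sets replicates correlated at r = 0.996 to 0.998, and induced with uninduced arrays at 0.932 to 0.938. Array medians were 8.37 to 8.44 in induced samples, and 8.38, 8.40 and 8.21 in uninduced samples, the lowest in uninduced replicate 3. The fusion holds the first part of ZBTB16 and the last part of RARA. Of 5 RARA probe sets, 211605_s_at stood at 7.58 ± 0.17 in induced and 1.87 ± 0.10 in uninduced samples, and 203749_s_at at 3.99 ± 0.04 in induced and 5.16 ± 0.08 in uninduced samples (SD, n = 3 each). The other 3 had means of 1.91, 5.05 and 5.04 in induced samples, against 1.91, 5.27 and 5.16 in uninduced samples. The 1 ZBTB16 probe set stood at 3.29 ± 0.59 in induced and 5.25 ± 0.21 in uninduced samples (SD, n = 3 each). Which transcript part each covers was not analysed here, so these genes check the labels only in part, and 211605_s_at alone was higher in the samples labelled induced. As a sign of RNA quality, the 3' probe set of GAPDH exceeded its 5' probe set by a log2 value of 0.58 ± 0.03 in induced and 0.50 ± 0.03 in uninduced samples (SD, n = 3 each; two-sided exact permutation p = 0.1, the smallest that 3 against 3 allows). For ACTB this excess was 1.41 ± 0.10 in induced and 1.25 ± 0.08 in uninduced samples (SD, n = 3 each; two-sided exact permutation p = 0.2). In bulk RNA a change in the share of cells that make a transcript and a change in the amount per cell cannot be told apart.

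Promoter windows of VIM and LMNA, whose main probe sets were far higher in induced cells, are shown beside those of LMNB1 and LMNB2, which differed little or were lower. Each window runs from 250 bases before to 50 bases after an annotated start site (RefSeq, GRCh38.p14). The VIM window is chr10:17227991-17228290 on the plus strand, the LMNA window chr1:156106466-156106765 on the plus strand, the LMNB1 window chr5:126776886-126777185 on the plus strand and the LMNB2 window chr19:2456910-2457209 on the minus strand. Windows of 6 of the 7 genes were used, 9 in all, and PLEC was not analysed here. Where a gene had several, the one farthest downstream is printed. Sequences run 5' to 3' on the strand of the gene, and capitals mark GC boxes.
VIM: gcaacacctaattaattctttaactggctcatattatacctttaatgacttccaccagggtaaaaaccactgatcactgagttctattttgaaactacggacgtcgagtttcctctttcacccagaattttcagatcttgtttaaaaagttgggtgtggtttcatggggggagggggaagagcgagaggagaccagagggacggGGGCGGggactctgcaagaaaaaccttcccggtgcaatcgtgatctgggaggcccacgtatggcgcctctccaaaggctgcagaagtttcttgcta
LMNA: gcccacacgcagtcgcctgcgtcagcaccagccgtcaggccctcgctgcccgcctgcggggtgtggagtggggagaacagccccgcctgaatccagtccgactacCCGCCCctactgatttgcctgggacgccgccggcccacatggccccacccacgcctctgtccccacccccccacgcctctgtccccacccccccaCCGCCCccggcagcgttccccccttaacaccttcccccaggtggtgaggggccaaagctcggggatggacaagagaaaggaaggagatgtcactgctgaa
LMNB1: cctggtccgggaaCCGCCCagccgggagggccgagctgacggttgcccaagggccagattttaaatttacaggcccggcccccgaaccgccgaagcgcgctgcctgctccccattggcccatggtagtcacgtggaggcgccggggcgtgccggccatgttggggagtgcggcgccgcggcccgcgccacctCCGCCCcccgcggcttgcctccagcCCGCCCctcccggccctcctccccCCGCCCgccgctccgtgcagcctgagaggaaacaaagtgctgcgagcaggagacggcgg
LMNB2: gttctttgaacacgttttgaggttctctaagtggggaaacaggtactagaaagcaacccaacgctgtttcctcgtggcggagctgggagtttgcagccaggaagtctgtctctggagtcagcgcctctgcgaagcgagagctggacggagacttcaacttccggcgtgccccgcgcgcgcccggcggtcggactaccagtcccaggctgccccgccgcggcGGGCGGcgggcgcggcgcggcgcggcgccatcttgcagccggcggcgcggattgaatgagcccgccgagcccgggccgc

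Both strands were searched for the retinoid receptor half-site AGGTCA, the AP-1 site TGANTCA and the GC box GGGCGG. Of 35116 promoter windows of the same length, 13.8% held the half-site, 7.71% the AP-1 site and 45% the GC box. The VIM window held 1 GC box, 46 bases before the start site, and neither other motif. Each of the 3 LMNA windows held 1 or 2 GC boxes and no half-site or AP-1 site. The LMNB1 window shown held 4 GC boxes, the other LMNB1 window 0 and the LMNB2 window 1. Which start sites these cells use was not analysed here. The LBR window held 1 half-site and 1 AP-1 site, and the NES window 1 half-site and 4 GC boxes. No match of 1 motif overlapped a match of another. A match is a description of these letters, and a window without one says nothing of the factor.

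Of the 15 member probe sets 11 passed the filter. In the limma fit over all probe sets 8 of these 11 were called higher and 1 lower in induced samples, and 2 were not called. Over all tested probe sets 34.6% were called higher and 27.9% lower, 62.5% in all. The groups did not overlap in 70.2% of all tested probe sets. The median difference of the 11 probe sets, 5 of them of LMNA, was 1.61 on the log2 scale, against 0.03 for all tested probe sets. Because this contrast led to the choice of the genes, nothing is read from the members' count or from their median.

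**Figure D1:**
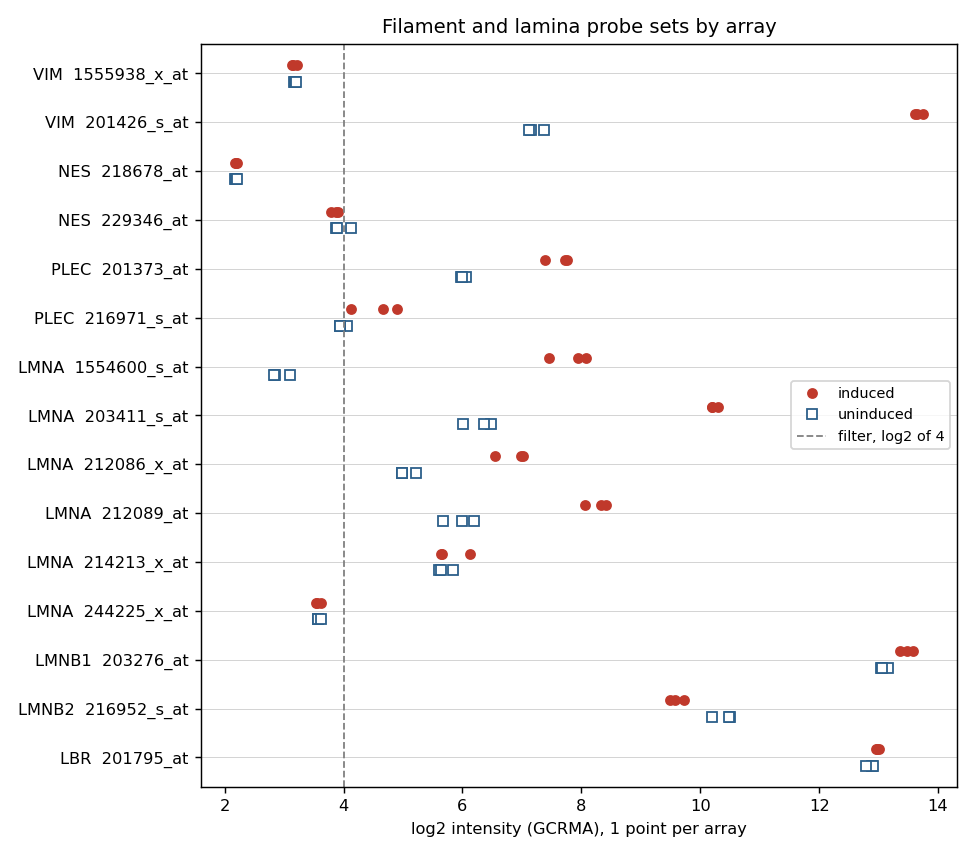
Log2 intensity (x axis) of the 15 member probe sets (rows) on each of the 6 arrays, with induced samples as filled circles above uninduced samples as open squares, and the filter at 4 as a dashed line. VIM 201426_s_at and 4 of 6 LMNA probe sets are well separated between groups, while LBR and LMNB1 are bright in both and both NES probe sets are dim.

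VIM was the member that differed most. Its probe set 201426_s_at stood at 13.61, 13.75 and 13.64 in the 3 induced samples, against 7.37, 7.15 and 7.12 in the 3 uninduced samples. All induced samples lay far above all uninduced samples, and the spread within each group was small beside the gap. The difference was 6.45 on the log2 scale (95% interval 6.24 to 6.66), or 87.6-fold. The other VIM probe set, 1555938_x_at, lay below the filter on all arrays, at 3.21, 3.14 and 3.14 in induced and 3.17, 3.18 and 3.20 in uninduced samples. The groups of this probe set overlapped. Both VIM probe sets carry a suffix (_s_at or _x_at) that marks probe sets able to bind several transcripts. Which transcripts they bind was not analysed here.

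The genes whose profile over the 6 arrays lay closest to that of VIM were picked by the root mean square distance of log2 values centred on each gene's mean. They were CTSW, a lysosomal protease of cytotoxic lymphocytes, PRF1, the pore-forming protein perforin, CAMP, the precursor of an antimicrobial peptide, EMP1, a membrane protein, and WT1, a zinc finger transcription factor. The first 4 were below the filter in all uninduced samples, where VIM was not, so their distances rest on values below the filter and their likeness to VIM was not measured. WT1 stood at 12.19 ± 0.05 in induced and 6.30 ± 0.06 in uninduced samples (SD, n = 3 each), at a distance of 0.30 from VIM. Its difference was 5.89 by its brightest probe set and 3.27 as the mean over its probe sets.

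NES was not measurable. Probe set 218678_at stood at 2.21, 2.18 and 2.19 in induced and 2.18, 2.19 and 2.20 in uninduced samples. Probe set 229346_at stood at 3.91, 3.79 and 3.87 in induced and 3.87, 3.88 and 4.13 in uninduced samples. Of these 12 values 1 lay above the filter, and the groups overlapped in both probe sets.

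PLEC was higher in induced samples in both of its probe sets, by unequal amounts. Probe set 201373_at stood at 7.73, 7.76 and 7.39 in induced and 6.06, 5.98 and 6.0 in uninduced samples, a difference of 1.61 (95% interval 1.36 to 1.87), or 3.06-fold. Induced replicate 3 was the lowest of its group and still above every uninduced sample. Probe set 216971_s_at lay near the filter, at 4.13, 4.91 and 4.67 in induced and 4.06, 3.94 and 3.95 in uninduced samples, a difference of 0.58 (95% interval 0.14 to 1.03). The groups of this probe set were separated by less than the spread within the induced group. It was no longer called without induced replicate 2 (0.41) or 3 (0.53), without uninduced replicate 1 (0.62), 2 (0.56) or 3 (0.57), with no filter (0.58) or after quantile normalization (0.46).

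LMNA was higher in induced samples in 4 of its 6 probe sets, and the size depended on the probe set. The brightest, 203411_s_at, stood at 10.30, 10.20 and 10.19 in induced and 6.48, 6.37 and 6.01 in uninduced samples, a difference of 3.94 (95% interval 3.65 to 4.24), or 15.4-fold. Uninduced replicate 3, the array with the lowest median, was the lowest of its group.

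Probe set 1554600_s_at stood at 7.46, 8.08 and 7.95 in induced and 3.10, 2.85 and 2.84 in uninduced samples. Since all uninduced values lay below the filter, it was at least 14.2-fold higher, taken as the induced mean over a log2 value of 4. Probe set 212089_at stood at 8.42, 8.06 and 8.33 in induced and 5.99, 6.19 and 5.67 in uninduced samples, 5.0-fold higher. Probe set 212086_x_at stood at 6.99, 6.55 and 7.03 in induced and 4.98, 4.99 and 5.23 in uninduced samples, 3.46-fold higher. In all of these no induced sample overlapped the uninduced ones.

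Both remaining LMNA probe sets showed no separation. Probe set 214213_x_at stood at 5.66, 6.13 and 5.63 in induced and 5.61, 5.84 and 5.64 in uninduced samples, a difference of 0.11 with an interval of -0.23 to 0.46. Its direction turned after quantile normalization (-0.09) and without induced replicate 2 (-0.05). Probe set 244225_x_at lay below the filter at 3.61, 3.54 and 3.56 in induced and 3.57, 3.58 and 3.61 in uninduced samples. The differences of the LMNA probe sets measured in both groups thus lay between 0.11 and 3.94 on the log2 scale. Which part of the LMNA transcripts each covers was not analysed here, and the suffixes _x_at and _s_at mark probe sets that can bind several transcripts.

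**Figure D2:**
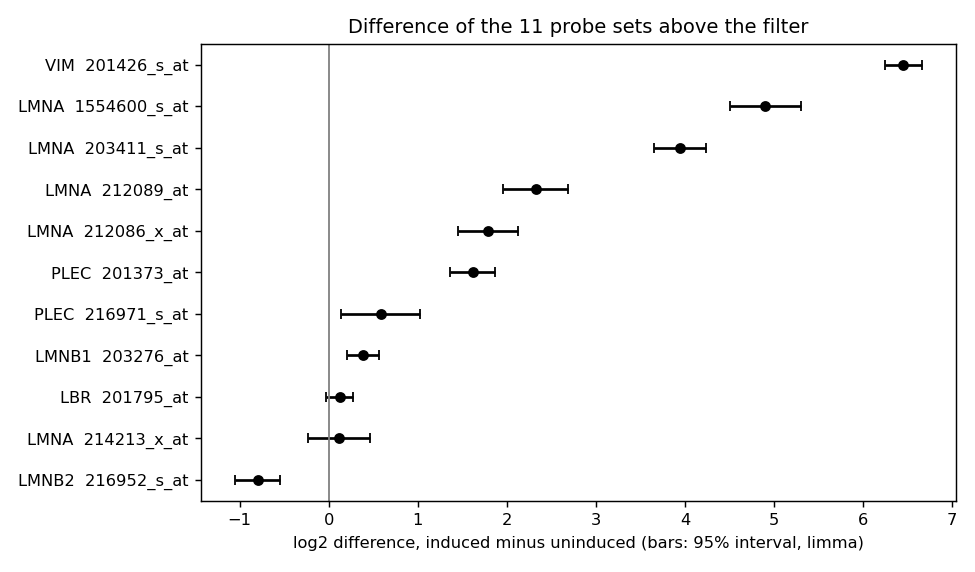
Log2 difference, induced minus uninduced (x axis), of the 11 member probe sets that passed the filter (rows), with 95% intervals from limma (n = 3 arrays per group). VIM stands at 6.45, the LMNA probe sets measured in both groups range from 0.11 to 3.94, the LMNA probe set drawn at 4.90 (1554600_s_at) lay below the filter in all uninduced samples, so that its difference has only a lower bound, LMNB1 and LBR lie between 0.12 and 0.38, and LMNB2 is at -0.80.

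The B-type lamins moved by smaller amounts and in opposite directions. LMNB1 203276_at stood at 13.37, 13.47 and 13.57 in induced and 13.04, 13.16 and 13.05 in uninduced samples, a difference of 0.38 (95% interval 0.20 to 0.57), or 1.31-fold. The groups did not overlap, but the gap between them was close to the range within the induced group.

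LMNB2 216952_s_at was the 1 member probe set that was lower in induced samples. It stood at 9.50, 9.73 and 9.58 in induced and 10.50, 10.49 and 10.20 in uninduced samples, a difference of -0.80 (95% interval -1.05 to -0.55), or 1.74-fold lower. The groups did not overlap, and uninduced replicate 3 lay closest to the induced samples. LMNB1 and LMNB2 kept these directions in every alternative in which they were tested, with LMNB1 between 0.31 and 0.44 and LMNB2 between -0.90 and -0.75.

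LBR 201795_at was bright in both groups, at 12.98, 12.95 and 13.01 in induced and 12.89, 12.90 and 12.78 in uninduced samples. The difference of 0.12 had an interval of -0.03 to 0.27 and was not called, although every induced sample lay above every uninduced one. After quantile normalization it was called at 0.15.

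The rest of the filament and lamina machinery was described with 8 gene lists, counted by gene, each gene by its brightest tested probe set. Of the 9836 genes tested, 66.5% passed the test: 35.8% rose and 30.7% fell in induced samples (limma, adjusted p under 0.05), with a median difference of 0.02. In each list the 4 genes with the smallest adjusted p are named, and further genes were chosen after their values were seen. Adjusted p-values in the account of these lists are from limma and were adjusted by Benjamini-Hochberg over every tested probe set.

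**Figure D3:**
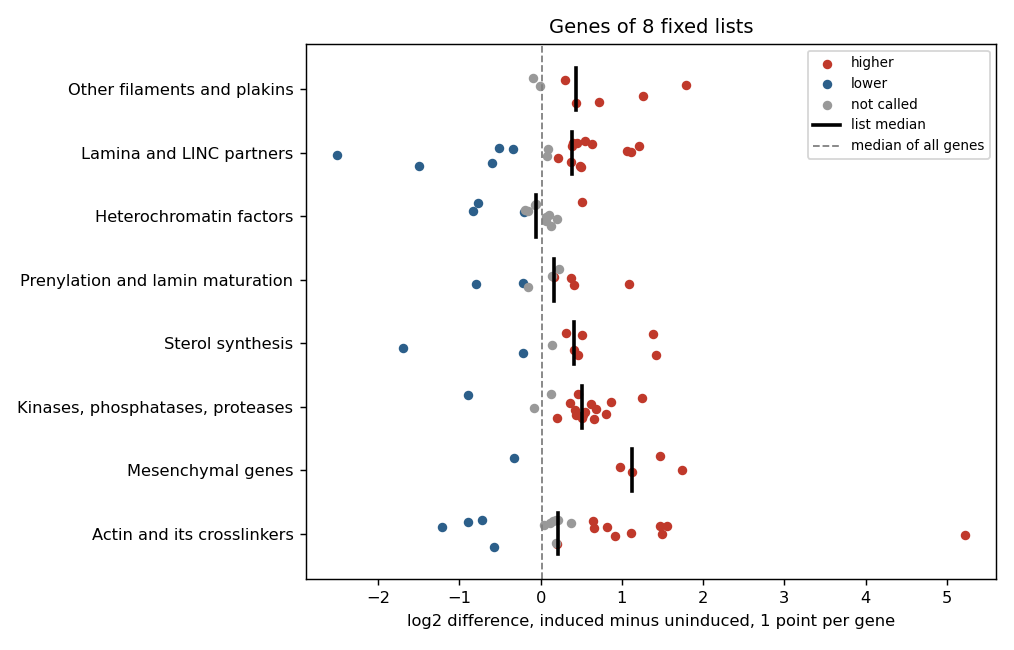
Log2 difference, induced minus uninduced (x axis), of each measured gene in 8 lists (rows), coloured by whether it was called higher, lower or not called, with the list median as a bar and the median of all genes (0.02) as a dashed line. The median lies at 0.50 for kinases, phosphatases and proteases and at -0.06 for heterochromatin factors, and GSN stands apart at 5.22.

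Few other intermediate filament genes were measured at all. Of 27 filament and plakin genes 20 lay below the filter, with group means of at most 3.53, and these included the muscle filament desmin, the glial filament GFAP, the neurofilaments and most keratins. Of the 7 measured, 5 rose, 0 fell and 2 did not pass, with a median of 0.43. The filament protein gene SYNC (syncoilin) stood at 6.47 ± 0.07 in induced and 4.68 ± 0.39 in uninduced samples (SD, n = 3 each), 3.45-fold higher (limma, adjusted p = 1.45e-04).

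The plakins MACF1 and DST, relatives of plectin that link actin and microtubules, were 2.39-fold and 1.35-fold higher (limma, adjusted p = 3.14e-04 and 0.0176). The call of DST was lost in 3 of 14 alternatives, without induced replicate 1 or 2 and with no filter, with an adjusted p of up to 0.0714. MACF1 rose in 5 of its 7 tested probe sets, and the others did not pass. The value given for MACF1, 1.26 on the log2 scale, was the largest of these, and the mean over them was 0.62. IFFO2, an intermediate filament family member, stood at 4.67 ± 0.41 in induced and 3.95 ± 0.14 in uninduced samples (adjusted p = 0.0172), with 1 uninduced sample above the filter, and did not pass with no filter or without uninduced replicate 2. The fifth, IFFO1, differed by 0.30 (adjusted p = 0.0459), a call lost in 10 of 15 alternatives. The list held 3 rises without induced replicate 2 and also without uninduced replicate 2, and 2 with no filter.

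Of 19 measured partners of the lamina and the nuclear membrane 12 rose and 5 fell, with a median of 0.38, and a further 4 lay below the filter. SUN1 and SUN2, inner membrane proteins of the LINC complex that couples the lamina to the cytoskeleton, were 2.09-fold and 2.32-fold higher (limma, adjusted p = 2.34e-05 and 1.73e-05). SUN1 stood at 11.26 ± 0.03 in induced and 10.20 ± 0.11 in uninduced samples, and SUN2 at 9.16 ± 0.11 in induced and 7.94 ± 0.06 in uninduced samples (SD, n = 3 each). For SUN1 the log2 difference was 1.06 by its brightest probe set and 0.75 as the mean over its probe sets.

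The RNA-binding nuclear matrix protein MATR3 was 5.65-fold lower, at 8.74 ± 0.05 in induced and 11.24 ± 0.13 in uninduced samples (limma, adjusted p = 1.26e-06). The inner membrane protein TMEM201 differed by -1.50 on the log2 scale by its brightest probe set (adjusted p = 2.46e-05). The mean over its probe sets was -1.05. Without uninduced replicate 1 another of its probe sets was the brightest and stood for the gene, with a difference of -0.53. The lamin-binding LEM domain proteins went both ways: EMD (emerin) fell by 0.60 and LEMD3 (MAN1) rose by 0.55 on the log2 scale (adjusted p = 2.18e-04 and 3.37e-04). TMPO, which encodes the LAP2 proteins, rose by 0.22 (adjusted p = 0.0277), but did not pass in 5 of 15 alternatives, among them those after median centring (a log2 difference of 0.14) or without induced replicate 2, induced replicate 3 or uninduced replicate 1 (log2 differences of 0.21, 0.19 and 0.23). The other falls were TMEM43 (-0.51) and BANF1, the barrier-to-autointegration factor (-0.34). The call of BANF1 was lost in 5 of 14 alternatives, among them those without induced replicate 1 or 3 or uninduced replicate 1 or 2, with an adjusted p of up to 0.0591. With such suffixed probe sets (_x_at, _s_at) left out, TMEM43 differed by 0.62.

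Few heterochromatin factors passed the test. Of 13 genes, all measured, 1 rose, 3 fell and 9 did not pass, with a median of -0.06. CBX5, the heterochromatin protein HP1 alpha that binds LBR, rose 1.43-fold (limma, adjusted p = 0.00367). The chromatin architectural protein HMGA1 fell by 0.77, the deacetylase SIRT6 by 0.83 and the histone methyltransferase SUV39H2 by 0.20 (adjusted p = 7.82e-05, 5.23e-04 and 0.0496). The call of SUV39H2 was lost in 8 of 15 alternatives, with an adjusted p of up to 0.15 in its weakest, without uninduced replicate 2. After quantile normalization 5 genes fell, and without induced replicate 2 there were 2 rises.

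The list of prenylation and lamin maturation held genes of prenyl lipid supply and of prenyltransferases, not all of which act on lamins. It also held genes that process or bind prelamin A or prenylated tails. Of 9 measured 4 rose and 2 fell, with a median of 0.17. HMGCS1, an enzyme of the mevalonate pathway, was 2.12-fold higher (limma, adjusted p = 2.07e-05), PGGT1B, a subunit of a prenyltransferase, 1.33-fold and NARF, a prelamin-binding protein, 1.30-fold higher. NARF differed by 0.05 with the suffixed probe sets left out. FNTA, the subunit shared by both prenyltransferases, differed by 0.17 (adjusted p = 0.0434), and its call was lost in 9 of 15 alternatives. FNTB, another prenyltransferase subunit in the list, lay below the filter, at 3.35 in induced and 2.86 in uninduced samples.

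ICMT, which methylates the prenylated tail, was 1.74-fold lower (limma, adjusted p = 9.06e-04). ZMPSTE24, the protease that cleaves prelamin A, fell by 0.21 (adjusted p = 0.0464). That call was lost in 6 of 15 alternatives, among them those with no filter and without induced replicate 1 or 3 or uninduced replicate 1 or 2, each of which left 1 fall in the list, with an adjusted p of up to 0.152 for ZMPSTE24.

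Sterol synthesis genes were listed because LBR reduces a sterol double bond. Of 9 measured 6 rose and 2 fell, with a median of 0.41. TM7SF2, the other enzyme with the sterol reductase activity of LBR, was 2.67-fold higher, at 6.95 ± 0.01 in induced and 5.53 ± 0.10 in uninduced samples (SD, n = 3 each; limma, adjusted p = 5.97e-06). MSMO1 was 2.62-fold and SC5D 1.43-fold higher. DHCR7, the last reductase of cholesterol synthesis, was 3.24-fold lower, at 7.81 ± 0.05 in induced and 9.50 ± 0.06 in uninduced samples (adjusted p = 2.09e-06). The other fall was NSDHL (-0.22, adjusted p = 0.016), whose call was lost without induced replicate 3, uninduced replicate 1 or uninduced replicate 2, leaving 1 fall.

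The list of kinases, phosphatases and proteases was drawn up around vimentin and lamins, and not all of its genes act on them directly. Of 17 measured 14 rose and 1 fell, with a median of 0.50. Without induced replicate 2 there were 11 rises. The calpain CAPN2, a protease that cleaves vimentin, was 2.37-fold higher (limma, adjusted p = 2.38e-05). PRKCB, a protein kinase C, was 1.74-fold higher, and CDK1, the mitotic kinase that phosphorylates lamins as the lamina is taken apart, 1.58-fold higher. CASP6, the caspase that cleaves lamin A, rose 1.42-fold (adjusted p = 7.13e-04). PRKCD was 1.86-fold lower, and the mitotic kinase AURKB differed by -0.08 (adjusted p = 0.302, in a range from 0.0461 to 0.576 over the alternatives).

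Genes of the mesenchymal programme, in which vimentin is a common marker, were mostly not measured. Of 18 genes 12 lay below the filter, with group means of at most 3.0, among them the inducers SNAI1, SNAI2, TWIST1 and ZEB1, the cadherin CDH2 and fibronectin (FN1). Of the 5 measured, 4 rose and 1 fell. The calcium-binding protein S100A4 was 3.33-fold higher, the hyaluronan receptor CD44 2.18-fold and the integrin chain ITGB1 1.96-fold higher (limma, adjusted p = 2.60e-06, 1.70e-05 and 6.89e-05). MMP2, a matrix protease, stood at 5.78 ± 0.78 in induced and 4.31 ± 0.06 in uninduced samples (SD, n = 3 each; adjusted p = 0.0089). The repressor ZEB2 fell by 0.33 (adjusted p = 0.00225), and differed by -0.92 as the mean over its probe sets.

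Of 21 measured genes of actin and its crosslinkers 10 rose and 4 fell, with a median of 0.21. GSN (gelsolin), which severs actin filaments, stood at 10.17 ± 0.10 in induced and 4.94 ± 0.38 in uninduced samples (SD, n = 3 each), 37.4-fold higher (limma, adjusted p = 1.79e-06). The tropomyosins TPM4 and TPM1 were 2.93-fold and 2.82-fold higher and RDX (radixin), which links actin to the membrane, 2.17-fold higher. The falls were TAGLN2 (-1.22), LSP1 (-0.89), CORO1A (-0.73) and ZYX (-0.57), all actin-binding or adhesion proteins. ACTB differed by 0.19 (adjusted p = 0.0963, in a range from 0.0125 to 0.246 over the alternatives).

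**Figure D4:**
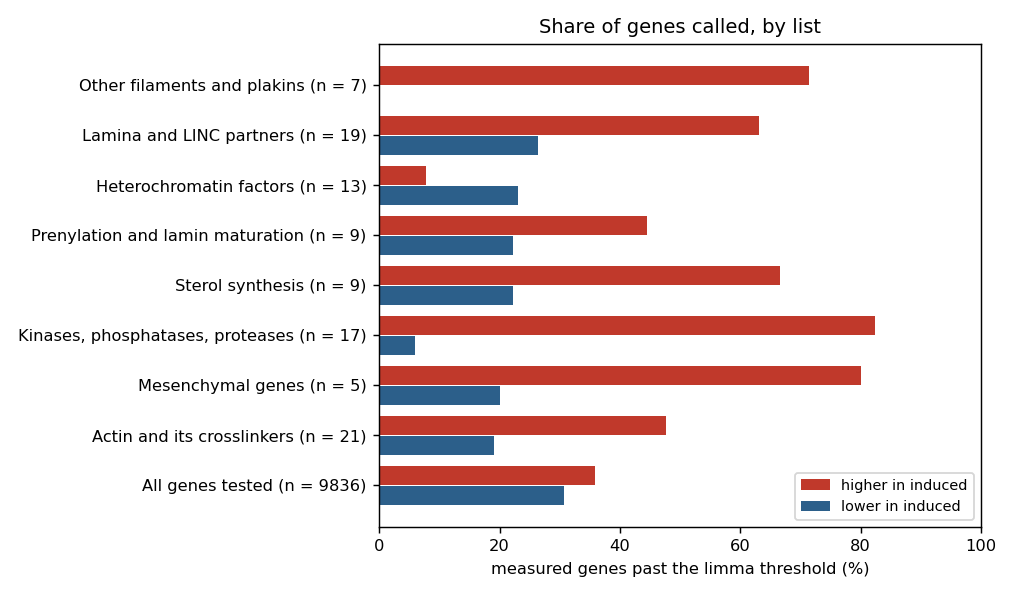
Share of measured genes in each list (rows, n in brackets) that were called higher (upper bar) or lower (lower bar) in induced samples, in percent on the x axis, with all tested genes in the last row. Kinases, phosphatases and proteases show 82.4% higher and heterochromatin factors 7.69%, against 35.8% of all genes.

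Markers of other cell types were measured beside VIM, which many cell types express. Of 10 myeloid markers 6 were measured: PTPRC (CD45) rose 3.41-fold and CD4 1.18-fold, while LYZ (1.80-fold), ITGB2 (1.61-fold), CSF3R (1.55-fold) and SPI1 (at least 8.70-fold) were lower (limma, adjusted p from 1.95e-06 to 0.0318). The call of CD4 was lost in 4 of 15 alternatives, with no filter and without each induced replicate, with an adjusted p of up to 0.0921. The median log2 difference of the 6 measured markers was -0.66. The summed intensity of 8 myeloid probe sets was 26298 to 27591 in induced and 23265 to 25240 in uninduced samples. Such a linear sum is weighted to the brightest genes, here PTPRC and LYZ, and does not stand for the whole list. MPO and FCGR1A lay below the filter.

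All 7 lymphoid markers used here, the CD3 chains among them, lay below the filter in both groups. Their summed intensity was 42.4 to 46.7 in induced and 44.8 to 46.0 in uninduced samples. Of 7 epithelial or endothelial markers KRT8 alone was measured, at 5.67 in both groups, and the sum was 90.8 to 93.7 in induced and 91.8 to 93.6 in uninduced samples.

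Of 8 fibroblast markers 7 lay below the filter, including COL1A2, COL3A1, DCN, LUM and both PDGF receptors. The summed intensity of the list, with 1 probe set per gene, was 259.9 to 282.2 in induced and 356.4 to 378.9 in uninduced samples. For COL1A1 this sum held only 217430_x_at, so its direction rests on that choice. COL1A1, a collagen chain, was measured by 3 probe sets that went different ways. Its brightest over all arrays, 217430_x_at, stood at 7.71 ± 0.09 in induced and 8.26 ± 0.06 in uninduced samples (limma, adjusted p = 4.84e-04). Probe set 1556499_s_at stood at 9.09 ± 0.17 in induced and 2.36 ± 0.01 in uninduced samples (adjusted p = 6.47e-08), and 202310_s_at at 4.63 ± 0.33 in induced and 4.12 ± 0.12 in uninduced samples (adjusted p = 0.0325). Why the COL1A1 probe sets differed was not tested, nor was any link between 1556499_s_at and VIM.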

How the data were processed

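RNA of 3 induced and 3 uninduced samples was hybridised to Affymetrix HG-U133 Plus 2.0 arrays, 1 per sample. The deposited values are GCRMA intensity on a linear scale (0.914 to 122290), per the submitters' processing notes. The version of GCRMA was not given in the sources used here. Its background model sets dim probe sets close to a shared floor, which distorts changes that start or end there. The log2 was taken after raising 6 values under 1 to 1. The 62 control probe sets were left out. Genes were named from GEO's platform annotation where it gave 1 symbol (41091 of 54675 probe sets), and 0 symbols needed an update; list genes without such a probe set were not analysed here. Samples were grouped by title. Probe sets above a log2 value of 4 on at least 3 arrays (20552) went into 1 fit of group in limma 3.58.1 (R 4.3.3; lmFit, then eBayes), two-sided and without covariates. P-values were adjusted by Benjamini-Hochberg with a threshold of 0.05. The brightest tested probe set on average stood for a gene. Where all arrays of the dimmer group lay below the filter, a fold is given as "at least", against a log2 value of 4. The members and the 12 lists (184 entries) were chosen with earlier results of these data known, so counts over a list are no independent support. Named were all member probe sets, the 4 genes of each list lowest in adjusted p, the 5 genes nearest to VIM and others, said to be chosen after their values were seen; 1 gene of the kinase list that this rule names is not reported here. The fit was tested on simulated data. The number of arrays limits the precision. Promoter sequences came from RefSeq. Plots used Python 3.11.15 and matplotlib 3.10.9. Alternatives left out the filter or set it at 6, normalized by quantiles or centred on medians, changed eBayes (trend, robust) or weighted arrays, took the replicate number as a block, dropped the _x_at and _s_at probe sets, averaged a gene's probe sets, or dropped 1 array at a time.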

Additional observations from a re-analysis of the deposited data

How the results depend on the processing

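Of 11 tested member probe sets, VIM 201426_s_at, PLEC 201373_at, LMNB1, LMNB2 and the 4 LMNA probe sets called higher kept direction and call in every alternative in which they were tested. Dropping suffixed probe sets (_x_at, _s_at) removed most of them, among them VIM 201426_s_at and LMNB2, so that VIM was not tested and 3 were called. Fewer probe sets were then tested, and this step left 7537 calls over all probe sets. It also left 2 of 5 filament genes higher, 3 of 5 lamina partners and 0 of 3 heterochromatin factors lower, 3 of 6 sterol genes, 9 of 14 kinases and proteases and 5 of 10 actin genes higher. With no filter, 2 filament genes and 2 heterochromatin factors were higher and 1 maturation enzyme was lower, and MMP2 lost its call. Heterochromatin factors numbered 2 higher also with array weights and with means over probe sets. After median centring 1 filament gene and 2 kinases or proteases were lower, and after quantile normalization 1 filament gene and 5 heterochromatin factors. Leaving out 1 array gave 8 to 9 member calls, 11594 to 12876 calls over all probe sets and 63 to 72 called genes in the 8 lists (74 with all arrays). LMNA 214213_x_at turned direction after quantile normalization (-0.093), with array weights (-0.014) and without induced replicate 2 (-0.048), in a range up to 0.20 without 1 array. KRT8, at -0.0018, turned with array weights (4.1e-04) and without 1 array (-0.0094 to 0.0036). MACF1 (-0.18) and TMEM43 (0.62) turned with the suffixed probe sets dropped, and COL1A1 (2.23) with the mean over its probe sets; in each other probe sets then stood for the gene. Among 64 other genes, the 1 of the kinase list that is not reported included, 871 of 939 alternative values kept direction and call. Same-numbered samples deviated together at r = -0.17 to 0.18, and 2 of 6 samples correlated best with their own number. With 3 arrays per group this cannot decide whether the numbers pair the samples. With the replicate block 12809 probe sets, 9 member probe sets and 70 list genes were called, with 1 maturation enzyme lower, and TMPO, ZMPSTE24, FNTA and SUV39H2 lost their calls. Over all probe sets the median difference was 0.03, -0.06 after quantile normalization and -0.05 after median centring, with 55.4%, 45.6% and 48.1% of calls higher. Below a log2 value of 4, as in NES, no change could be measured.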
